A study of Mus musculus with 6 samples.

Results

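The genes that bring pyruvate into mitochondrial metabolism were followed in RNA-seq of inguinal white adipose tissue (IngWAT), the subcutaneous fat pad of the groin. They are 10 genes, *Mpc1*, *Mpc2*, *Pcx*, *Pdha1*, *Pdhb*, *Dlat*, *Pdk1*, *Pdk2*, *Pdk3* and *Pdk4*, chosen by symbol through the GENCODE annotation of the counted identifiers, of 46517 genes counted in all. H3atKO mice lack *Hdac3*, which encodes the histone deacetylase HDAC3, in adipose tissue, because a Cre recombinase driven by the adiponectin (*Adipoq*) promoter, which is active in mature white and brown adipocytes, excises the floxed gene. The comparison group, called floxed, carried the floxed *Hdac3* allele without this deletion. Both groups were C57Bl6 mice, male by the study's methods and 5 to 9 months old by the labels (the methods give a single adult age, in weeks, for all experiments), on chow in standard housing. Each group has 3 samples, and each sample is a pool of RNA from 2 or 3 mice, so that the n of 3 counts pools and single mice were not measured. The cells of the fat pad in which this promoter is silent, such as endothelium, macrophages and stroma, keep their *Hdac3* and are part of each pool.

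Pyruvate, the end product of glycolysis, crosses the inner mitochondrial membrane through a carrier made of the proteins MPC1 and MPC2. In the matrix it meets competing enzymes. The pyruvate dehydrogenase complex turns it into acetyl-CoA, and pyruvate carboxylase, the product of *Pcx*, turns it into oxaloacetate. The complex is built from E1, which *Pdha1* and *Pdhb* encode, E2, which *Dlat* encodes, and E3, and it is switched off when a pyruvate dehydrogenase kinase (PDK) phosphorylates E1 and on when a phosphatase removes the phosphate. In adipocytes acetyl-CoA feeds both the Krebs cycle and, after export as citrate, fatty acid synthesis, while oxaloacetate refills the cycle and serves the synthesis of glycerol for triglycerides. *Pdk4* is known as the kinase gene that fasting and fatty acids induce in many tissues.

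The RNA-seq samples had 23865507 to 35200685 counts on genes, and 3 counts corresponded to between 0.0852 and 0.126 cpm, that is, counts scaled to a common total. *Hdac3* itself, the check of the labels, was counted 3139, 3339 and 2709 times in the floxed pools and 666, 413 and 204 times in the H3atKO pools, a log2 fold change of -1.83 (standard error 0.32, limma adjusted p = 0.0213). Leaving out 1 pool gave *Hdac3* log2 fold changes of -2.11 to -1.56, with an adjusted p under 0.05 in 1 of the 6 fits. The genotypes differed in other ways throughout the transcriptome. Reads with several alignments made up 28.3% to 35.2% of all reads in the tables of floxed and 43.8% to 45.5% in those of H3atKO samples. Transcripts of the mitochondrial genome took 6.92% to 12.9% of counts in floxed and 26.9% to 35.3% in H3atKO samples, and expression followed the GC content of the transcript. Across genes, GC content correlated with how far a pool lay above the average of all 6 pools, with a Spearman's rho of 0.80, 0.62 and 0.097 for floxed and -0.43, -0.50 and -0.71 for H3atKO replicates 1 to 3. Since this order separates the genotypes completely, effects of genotype and of GC content cannot be told apart, and results are repeated after a GC correction, which subtracts from each sample the curve of its deviations on GC content and with it any effect of genotype that follows GC content.

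The promoters of 4 of the 10 genes are printed because the results turn on them. *Pdk4* is the kinase with the most RNA, *Dlat* stands for the carrier and complex genes that rose, and *Pdk2* and *Pcx* are the genes whose direction depended on the GC correction. The sequences are those of RefSeq on GRCm38.p6, 5′ to 3′ along the gene, from 250 bases before the start site, and they leave out bases that GENCODE assigns to an exon, which shortens that of *Pdk4* to 219 bases. Capitals mark matches, on either strand, of the CCAAT box (letters CCAAT), the GC box (GGGCGG), the nuclear receptor half-site (AGGTCA) and the E-box (CACGTG), and no letter was shared between matches.
Pdk4 promoter, chr6:5496310-5496528, minus strand: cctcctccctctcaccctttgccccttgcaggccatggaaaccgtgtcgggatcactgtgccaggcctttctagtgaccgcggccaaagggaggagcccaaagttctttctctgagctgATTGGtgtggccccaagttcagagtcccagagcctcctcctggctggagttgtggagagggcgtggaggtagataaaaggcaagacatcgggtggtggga
Dlat promoter, chr9:50659781-50660030, minus strand: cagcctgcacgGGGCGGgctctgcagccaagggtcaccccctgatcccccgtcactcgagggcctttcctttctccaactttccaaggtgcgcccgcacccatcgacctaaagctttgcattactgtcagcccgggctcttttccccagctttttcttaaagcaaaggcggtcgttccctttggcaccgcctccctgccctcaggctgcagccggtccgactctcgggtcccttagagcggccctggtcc
Pdk2 promoter, chr11:95041372-95041621, minus strand: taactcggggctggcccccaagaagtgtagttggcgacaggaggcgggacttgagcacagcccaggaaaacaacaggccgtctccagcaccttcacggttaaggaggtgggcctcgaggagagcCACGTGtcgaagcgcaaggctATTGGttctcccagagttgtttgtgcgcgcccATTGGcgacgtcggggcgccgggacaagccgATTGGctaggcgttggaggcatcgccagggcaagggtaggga
Pcx promoter, chr19:4510222-4510471, plus strand: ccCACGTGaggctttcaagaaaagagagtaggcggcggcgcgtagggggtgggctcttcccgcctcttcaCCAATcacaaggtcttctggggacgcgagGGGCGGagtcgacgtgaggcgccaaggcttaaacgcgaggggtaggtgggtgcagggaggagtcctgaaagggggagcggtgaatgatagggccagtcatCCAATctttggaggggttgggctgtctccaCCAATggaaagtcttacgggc
All 10 genes were matched to the RefSeq table, with 14 start sites. A CCAAT box was found within 250 bases upstream of 7 of the 14 start sites and in 33.8% of all 32851 promoters in the table. The GC box was found at 8 of the 14 start sites and in 32.7% of promoters, and the nuclear receptor half-site at 1, of *Mpc1*, and in 14.0% of promoters. The 2 start sites with an E-box, which 6.02% of promoters held, were of *Pcx* and *Pdk2*. A match is a string of letters and was not tested as a binding site, and its absence from these windows says nothing of a factor's action elsewhere. The first promoters of *Pcx* and *Pdk2* had a GC content of 60.8% and 62.4%, within the range of 58.8% for *Pdk4* and 73.6% for *Mpc1*, so that the high GC content of their transcripts, described with the results, did not extend to a promoter richer in GC than those of the other members.

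The genes of the pyruvate carrier and of E1 and E2 of the pyruvate dehydrogenase complex rose together in H3atKO samples, by 3.15-fold to 6.16-fold, and *Pdk4*, a kinase that switches the complex off, rose 3.76-fold. In all, 6 of the 10 genes were called higher and 0 lower by limma voom at an adjusted p under 0.05, against 9.42% of the 14967 genes tested that were called higher and 7.07% that were called lower. At an unadjusted p under 0.05 the counts were 7 and 1. No share of all genes is given for that cut, here or for the lists below, so these counts have no background. edgeR called 7 higher and 0 lower, against 12.8% and 18.4% of all genes. DESeq2 called 7 and 2, against 19.6% and 23.2%, so that its 2 of 10 called lower is no more than the share of all genes. All 10 genes passed the filter on low values. In 7 genes every H3atKO sample was above every floxed sample, which held for 23.1% of all genes, and in 0 genes every H3atKO sample was below, which held for 28.6%. The median log2 fold change of the 10 genes was 1.78, and that of all genes was -0.09. With the replicate numbers of the labels as a block, 7 were called higher and 2 lower, against 24.8% and 28.7% of all genes. After the GC correction 5 were called higher and 0 lower, against 5.46% and 3.20% of the 14922 genes with a known GC content, and the medians were 1.28 for the 10 genes and 0.02 for all. Without TMM factors, on library sizes alone, the median of all genes moved to -0.94 and that of the 10 genes to 0.93, so that each difference given here is relative to the bulk of genes. With 1 pool left out in turn, each of the 7 genes kept a positive log2 fold change, but limma called 3 of them higher without floxed replicate 1, 0 without floxed replicate 2, 7 without floxed replicate 3 (where 2 members were called lower), and 5, 4 and 3 without H3atKO replicates 1, 2 and 3. Of all genes, limma called 1.01%, 0.00673% and 18.5% higher without floxed replicates 1, 2 and 3 and 1.34%, 2.64% and 0.584% without H3atKO replicates 1, 2 and 3, and it called 25.9% lower without floxed replicate 3. Without floxed replicate 2, limma called 1 gene in all, which was none of the members. In RNA of whole tissue, fewer cells of a type and less RNA per cell cannot be told apart.

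**Figure D1:**
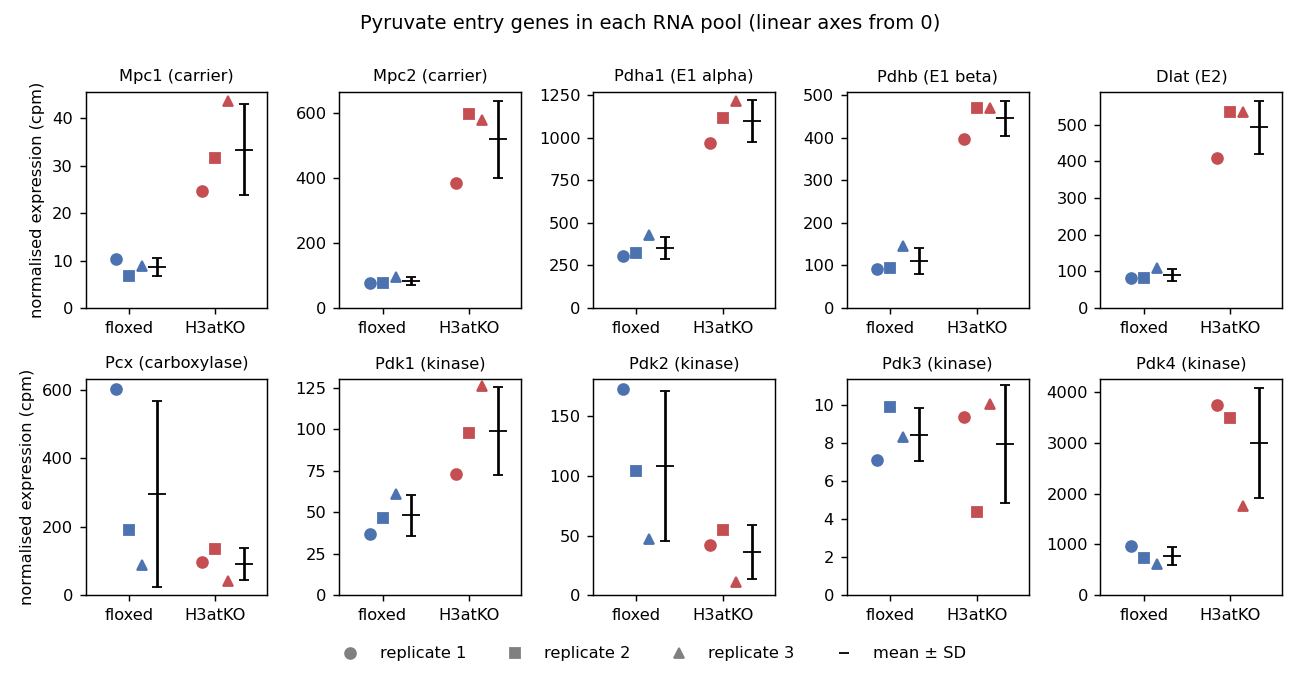
Normalised expression (cpm, linear axes from 0) of the 10 genes in each RNA pool of floxed (blue) and H3atKO (red) mice, with the replicate number as the symbol and the mean ± SD of 3 pools in black. The groups are apart in 7 genes, while *Pcx*, *Pdk2* and *Pdk3* overlap, and the floxed pools of *Pcx* span 89.3 to 603 cpm.

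The carrier was first compared. *Mpc2* (ENSMUSG00000026568, GRCm38 chromosome 1, 165460637 to 165481214) had a normalised expression of 77.1, 75.9 and 97.1 cpm in floxed and 384, 597 and 579 cpm in H3atKO replicates 1 to 3, where cpm are taken over the library size scaled by TMM. The lowest H3atKO pool was well above the highest floxed pool, and the log2 fold change of 2.62 (standard error 0.26, limma adjusted p = 0.0079) was the largest of the 10 genes in this fit, though not after the GC correction, where that of *Dlat* was larger. *Mpc1* (ENSMUSG00000023861, chromosome 17, 8282904 to 8297661), whose product pairs with MPC2 in the carrier, was at 10.4, 6.78 and 8.87 cpm in floxed and 24.8, 31.8 and 43.7 cpm in H3atKO replicates 1 to 3. Its groups did not overlap either, and the log2 fold change was 1.90 (standard error 0.33, limma adjusted p = 0.0217). With the GC correction the log2 fold changes were 1.85 for *Mpc2* (adjusted p = 0.0116) and 1.78 for *Mpc1* (adjusted p = 0.0232), so that the carrier genes then differed between genotypes by nearly the same amount. Without floxed replicate 2 the limma adjusted p was 0.0516 for *Mpc2* and 0.111 for *Mpc1*, and for *Mpc1* it was also 0.0554, 0.0537 and 0.0755 without floxed replicate 1, H3atKO replicate 2 and H3atKO replicate 3. *Mpc2* has the lowest GC content of the 10 transcripts, 43.2%. *Mpc1* shares 480 exon bases, 23.1% of its own, with *4930506C21Rik* on the opposite strand, which had 3 to 8 counts in the samples.

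Within a sample, the ratio of *Mpc2* to *Mpc1* RNA per kilobase of exon does not depend on library scaling. It was 2.11, 3.17 and 3.10 in floxed pools and 4.39, 5.33 and 3.75 in H3atKO pools, in the order of replicates 1 to 3. All H3atKO pools were above all floxed pools, a difference of 0.69 on the log2 scale (2-sided exact permutation test, p = 0.1, which is the lowest value possible with 3 pools against 3). On GC-corrected values the log2 ratios overlapped and differed by 0.03 (exact permutation test, p = 1), so that unequal change of the carrier genes was not found on that scale.

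The genes of the pyruvate dehydrogenase complex followed. *Dlat* (ENSMUSG00000000168, chromosome 9, 50634633 to 50659780), the gene of the E2 core that passes the acetyl group to coenzyme A, was at 82.0, 80.7 and 110 cpm in floxed and 410, 534 and 535 cpm in H3atKO replicates 1 to 3. The lowest H3atKO pool stood far above the highest floxed pool, and the log2 fold change was 2.44 (standard error 0.24, limma adjusted p = 0.0079). *Pdhb* (ENSMUSG00000021748, chromosome 14, 8165996 to 8173025), which encodes the beta subunit of E1, had 92.5, 94.6 and 145 cpm in floxed and 397, 470 and 469 cpm in H3atKO replicates 1 to 3, a log2 fold change of 2.03 (standard error 0.26, limma adjusted p = 0.0108). *Pdha1* (ENSMUSG00000031299, chromosome X, 160122209 to 160138413) encodes the alpha subunit, which carries the serines that the kinases phosphorylate. It was at 303, 324 and 426 cpm in floxed and 969, 1113 and 1213 cpm in H3atKO replicates 1 to 3, a log2 fold change of 1.66 (standard error 0.24, limma adjusted p = 0.0149). In each of these genes the pools of the genotypes were apart, and floxed replicate 3 was the highest of the floxed pools. With the GC correction the log2 fold changes were 2.21 for *Dlat* (adjusted p = 0.0075), 1.67 for *Pdhb* (adjusted p = 0.0105) and 1.19 for *Pdha1* (adjusted p = 0.0134), and all 3 calls held. Without floxed replicate 2 the limma adjusted p was 0.0516 for *Dlat*, 0.0664 for *Pdhb* and 0.0899 for *Pdha1*. It was 0.0549 for *Pdhb* and 0.0681 for *Pdha1* without H3atKO replicate 3, and 0.0506 for *Pdha1* without floxed replicate 1. *Pdha1* shares 603 exon bases, 16.2% of its own, with *Map3k15* on the opposite strand, which had 95 to 202 counts where *Pdha1* had 13465 to 23530.

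The E1 subunits sit in the enzyme in equal number, and their genes were therefore set against each other within each sample. *Pdhb* RNA per kilobase was 0.295, 0.283 and 0.330 of *Pdha1* RNA in floxed and 0.397, 0.409 and 0.374 of it in H3atKO replicates 1 to 3. Every H3atKO pool was above every floxed pool by this ratio, with a difference of 0.38 on the log2 scale (exact permutation test, p = 0.1, the smallest possible). The difference was 0.48 after the GC correction (p = 0.1 by the same exact test), with the groups again apart. Of the 4 ratios between members or groups of genes that were computed, this one had, without the correction, the smallest difference and the narrowest groups, with an SD on the log2 scale of 0.11 in floxed and 0.065 in H3atKO pools (n = 3 each).

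**Figure D2:**
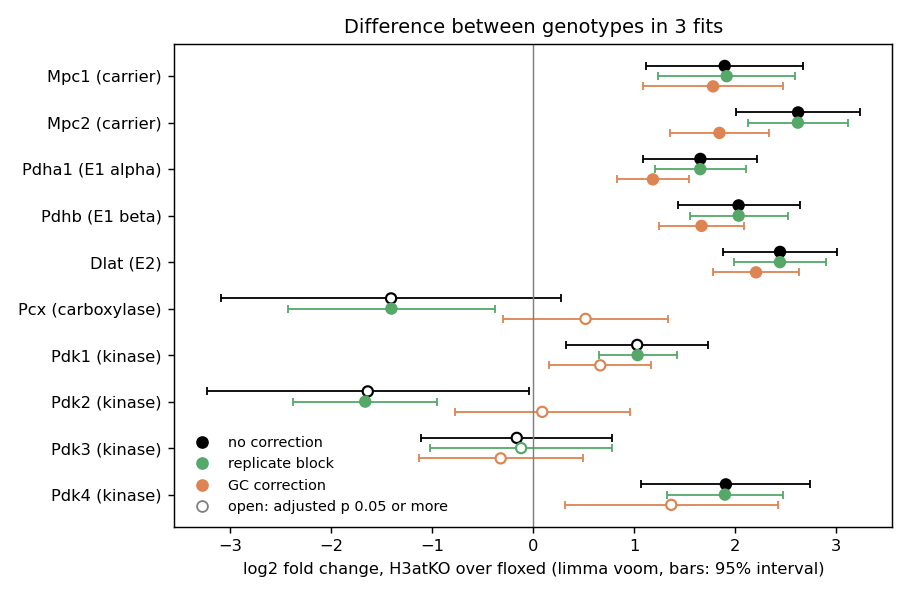
Log2 fold change (H3atKO over floxed) of each gene with its 95% interval from limma voom without correction (black), with the replicate number as a block (green) and with the GC correction (orange), where filled points have an adjusted p under 0.05. The carrier and complex genes lie right of 0 and are filled in all 3 fits, while *Pcx* and *Pdk2* move from -1.41 and -1.64 to 0.52 and 0.09 with the GC correction.

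Of the 4 kinase genes, *Pdk4* alone was called in the main fit, limma voom on all 6 samples scaled by TMM, without a block or correction. *Pdk4* (ENSMUSG00000019577, chromosome 6, 5483351 to 5496309) was at 961, 723 and 612 cpm in floxed and 3745, 3486 and 1747 cpm in H3atKO replicates 1 to 3. H3atKO replicate 3 was well below the other H3atKO pools but above every floxed pool, so that the groups did not overlap. The log2 fold change was 1.91 (standard error 0.36, limma adjusted p = 0.0245), and after the GC correction it was 1.37 (95% interval 0.32 to 2.42) with an adjusted p of 0.0967, which does not pass the threshold. The call was also lost without floxed replicate 1 (limma adjusted p = 0.0561), floxed replicate 2 (0.111), H3atKO replicate 1 (0.070) and H3atKO replicate 2 (0.062). *Pdk1* (ENSMUSG00000006494, chromosome 2, 71873224 to 71903858), known as a target of the hypoxia factor HIF1, had 36.8, 46.4 and 60.9 cpm in floxed and 72.8, 97.8 and 126 cpm in H3atKO replicates 1 to 3. Its groups were apart, but its log2 fold change of 1.03 (standard error 0.30) had a limma adjusted p of 0.053. edgeR (adjusted p = 0.0403) and limma with the replicate block (adjusted p = 0.00465) called it higher, as did limma without floxed replicate 3 (adjusted p = 0.0183), and the GC-corrected value was 0.67 (adjusted p = 0.0939). With the block added to the GC correction, *Pdk4* (log2 fold change 1.36, adjusted p = 0.0166) and *Pdk1* (0.67, adjusted p = 0.0347) both passed.

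*Pdk2* (ENSMUSG00000038967, chromosome 11, 95026258 to 95041354), a widely expressed kinase gene, was at 173, 104 and 47.2 cpm in floxed and 42.3, 54.7 and 10.7 cpm in H3atKO replicates 1 to 3. The floxed pools spread widely, and the groups overlapped, since H3atKO replicate 2 was above floxed replicate 3. The log2 fold change was -1.64 (standard error 0.68, 95% interval -3.23 to -0.04) with a limma adjusted p of 0.108. With the replicate block, the adjusted p was 0.00648 at a log2 fold change of -1.66, and with the GC correction the log2 fold change was 0.09 (95% interval -0.77 to 0.96, adjusted p = 0.884). Without floxed replicate 3 it was -2.14 (limma adjusted p = 0.0302), and without H3atKO replicate 3 it was -0.98 (adjusted p = 0.279). *Pdk3* (ENSMUSG00000035232, chromosome X, 93764607 to 93832201), the kinase gene with the least RNA, was at 7.11, 9.88 and 8.34 cpm in floxed and 9.39, 4.38 and 10.1 cpm in H3atKO replicates 1 to 3. Its groups overlapped, with a log2 fold change of -0.16 (95% interval -1.11 to 0.79, limma adjusted p = 0.774), and H3atKO replicate 2, with 86 counts, was the lowest of the 6 samples.

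Counted per kilobase of exon, *Pdk4* gave most of the PDK RNA in every pool. Its share of the summed RNA of *Pdk1* to *Pdk4* was 81.5%, 82.8% and 87.0% in floxed pools and 97.6%, 96.9% and 95.5% in H3atKO pools, in the order of replicates 1 to 3. The groups were apart by 12.9 percentage points (exact permutation test, p = 0.1, the smallest possible). The share of *Pdk2* took the opposite course, at 16.3%, 13.3% and 7.45% in floxed pools and 1.22%, 1.69% and 0.648% in H3atKO pools, in the order of replicates 1 to 3. *Pdk1* held 1.41% to 3.91% of PDK RNA in floxed and 0.856% to 3.10% in H3atKO pools, and *Pdk3* 0.827% to 1.62% and 0.167% to 0.753%. In GC-corrected values the shares of *Pdk4* were 93.6%, 89.9% and 87.5% in floxed pools and 96.9%, 95.4% and 93.4% in H3atKO pools, in the order of replicates 1 to 3. H3atKO replicate 3 was then just below floxed replicate 1, and the difference was 4.89 percentage points (exact permutation test, p = 0.2), while the share of *Pdk2* remained apart between the groups, at 4.20% to 7.04% against 1.87% to 3.12% (p = 0.1, the smallest possible in this exact test).

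**Figure D3:**
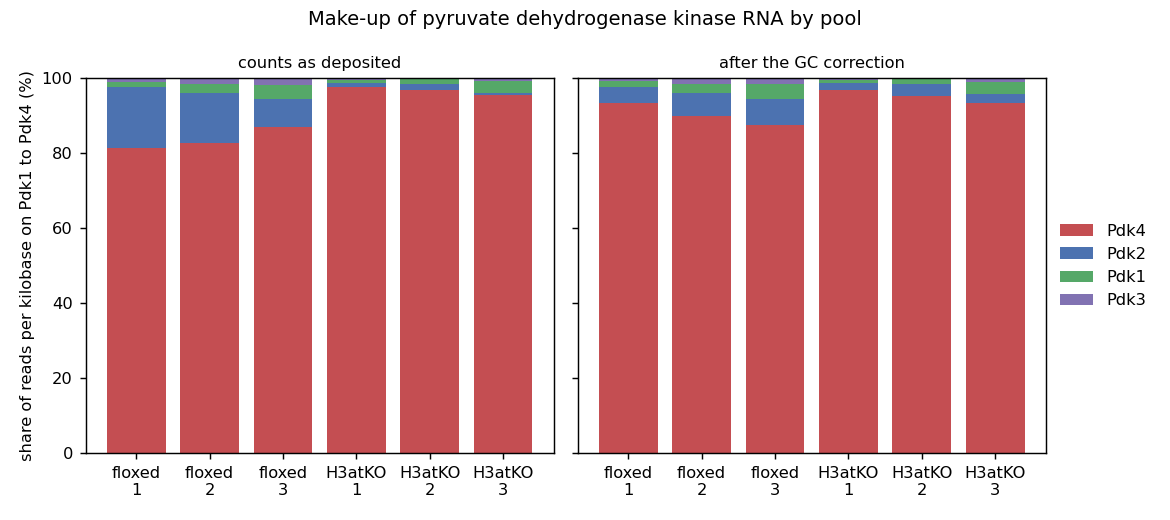
Share (%) of the reads per kilobase on *Pdk1* to *Pdk4* that each gene took in the 6 RNA pools, from the counts as deposited (left) and after the GC correction (right). *Pdk4* (red) takes 81.5% to 87.0% of floxed and 95.5% to 97.6% of H3atKO PDK RNA on the left, and 87.5% to 93.6% and 93.4% to 96.9% on the right, where the groups overlap.

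Relative to its mean, pyruvate carboxylase varied most of the 10 genes in floxed pools, and *Pdk2* did in H3atKO pools. *Pcx* (ENSMUSG00000024892, chromosome 19, 4510472 to 4621752) was at 603, 191 and 89.3 cpm in floxed and 96.8, 135 and 40.9 cpm in H3atKO replicates 1 to 3. Floxed replicate 1 stood far above all other pools, and floxed replicate 3 was below 2 of the H3atKO pools. The log2 fold change was -1.41 (standard error 0.72, 95% interval -3.09 to 0.28, limma adjusted p = 0.168). With the replicate block the adjusted p was 0.0332 at -1.40. With the GC correction the log2 fold change was 0.52 (95% interval -0.30 to 1.34, adjusted p = 0.339), so that its sign depended on the correction. Without floxed replicate 3 the log2 fold change was -2.04 (limma adjusted p = 0.0357), and without floxed replicate 1 it was -0.68 (adjusted p = 0.410). Set against *Pdha1* within a sample, *Pcx* RNA per kilobase was 1.56, 0.463 and 0.164 of *Pdha1* RNA in floxed and 0.0785, 0.0955 and 0.0265 of it in H3atKO replicates 1 to 3. By this ratio the groups were apart, with a difference of -3.08 on the log2 scale (exact permutation test, p = 0.1, the smallest possible), which was -2.24 without floxed replicate 1 and -3.87 without floxed replicate 3. After the GC correction the log2 ratio of *Pcx* to *Pdha1* was -1.64, -2.39 and -2.68 in floxed pools and -3.01, -2.44 and -3.27 in H3atKO pools, in the order of replicates 1 to 3, groups that overlapped, with a difference of -0.67 (exact permutation test, p = 0.2).

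*Pcx* and *Pdk2*, the members with the most negative log2 fold changes, were also the members richest in GC. Their transcripts have a GC content of 57.7% and 56.9%, while the other 8 members lie between 43.2% and 48.0%, among them *Pdk3*, which was at -0.16 with a GC content of 47.7%. Of all genes tested, 11.9% have a GC content at or above that of *Pdk2*. Over the 14922 genes with a known GC content, the log2 fold change was lower the higher the GC content (Spearman's rho -0.71, across genes, which are no independent replicates). The order of the pools in *Pcx* and *Pdk2*, with floxed replicate 1 highest and H3atKO replicate 3 lowest, was also the order of the samples at the ends of the GC relation. The part of GC content in these differences was not tested.

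**Figure D4:**
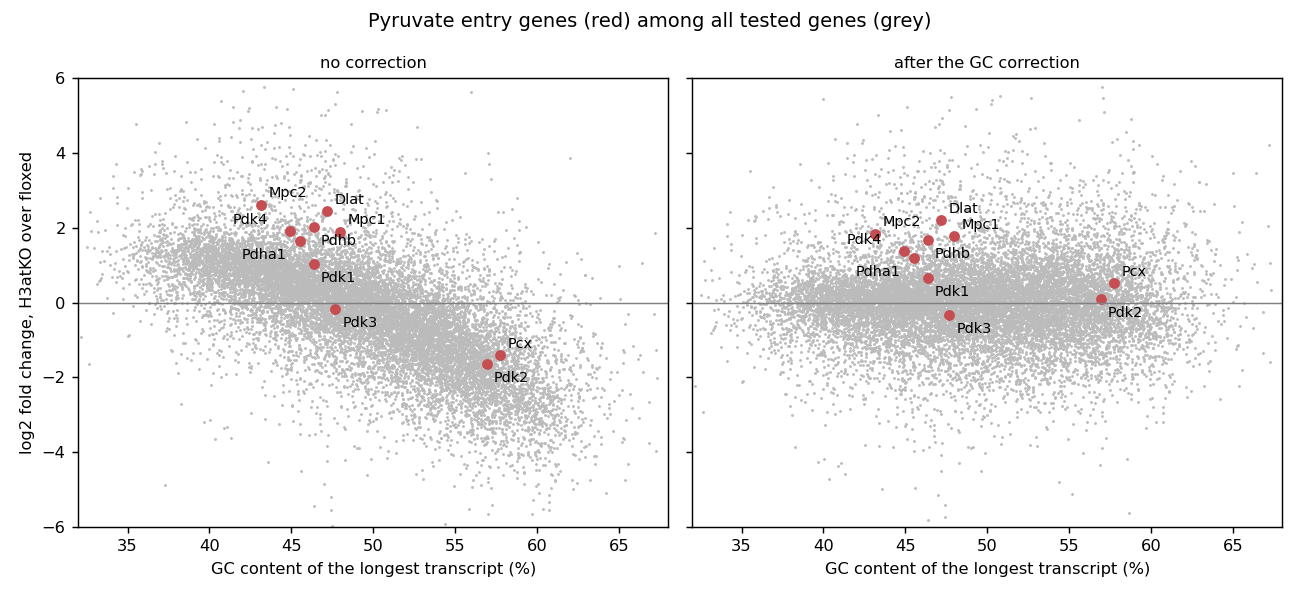
Log2 fold change (H3atKO over floxed) against the GC content (%) of the longest transcript for all tested genes (grey) and the 10 pyruvate genes (red), without correction (left) and after the GC correction (right). On the left *Pcx* and *Pdk2* lie within the falling band of genes near 57%, and the carrier and complex genes lie at 1.66 to 2.62. On the right *Pcx* and *Pdk2* lie at 0.52 and 0.09. Values beyond 6 in either direction are not drawn.

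The levels of the 10 genes were ordered per kilobase of exon, as cpm per kilobase. In floxed samples the mean levels were 218 for *Pdk4*, 94.1 for *Pdha1*, 62.0 for *Pcx*, 34.2 for *Pdk2*, 28.7 for *Pdhb*, 18.6 for *Dlat*, 11.4 for *Mpc2*, 6.18 for *Pdk1*, 4.17 for *Mpc1* and 3.30 for *Pdk3* (n = 3 pools). The ranges of *Pdha1*, *Pcx*, *Pdk2* and *Pdhb* overlapped from each to the next, as did those of *Pdk1*, *Mpc1* and *Pdk3*, and these neighbours are not ordered beyond their spread, although *Pcx* was above *Pdk2* in every floxed pool. In H3atKO samples the mean levels were 852 for *Pdk4*, 294 for *Pdha1*, 115 for *Pdhb*, 101 for *Dlat*, 70.8 for *Mpc2*, 19.1 for *Pcx*, 16.1 for *Mpc1*, 12.7 for *Pdk1*, 11.3 for *Pdk2* and 3.10 for *Pdk3*. There the ranges of *Pcx*, *Mpc1*, *Pdk1* and *Pdk2* overlapped from each to the next, as did those of *Pdhb* and *Dlat*, although *Mpc1* was above *Pdk1* and *Pdhb* above *Dlat* in every H3atKO pool. By the mean, *Pdk4* was thus the member with the most RNA per kilobase in both genotypes and *Pdk3* the one with the least. Between genes, these levels also depend on the exons counted for each gene.

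The remaining parts of the complex and of its switch were read from a list of 8 genes. Of these, 4 were called higher and 0 lower, against 9.42% and 7.07% of all genes. The median log2 fold change of the list was 0.95, beside -0.09 for all genes. In 7 of the 8 every H3atKO pool was above every floxed pool, which held for 23.1% of all genes. *Dld*, the E3 subunit that the complex shares with other dehydrogenases, was at 170, 175 and 276 cpm in floxed and 1144, 1534 and 1798 cpm in H3atKO replicates 1 to 3 (log2 fold change 2.86, standard error 0.30, limma adjusted p = 0.0080). *Pdhx*, which tethers E3 to the core, had 31.4, 29.2 and 34.2 cpm in floxed and 117, 120 and 119 cpm in H3atKO replicates 1 to 3 (log2 fold change 1.91, limma adjusted p = 0.0087), with the closest agreement between pools of these genes. Thus each of the 5 genes for the complex itself, *Pdha1*, *Pdhb*, *Dlat*, *Dld* and *Pdhx*, was called higher, and each also had a GC-corrected adjusted p under 0.05. *Pdpr*, the regulatory subunit of the phosphatase, rose by a log2 fold change of 1.12 (limma adjusted p = 0.0332), and *Lias*, which makes the lipoyl group that E2 carries, by 0.97 (limma adjusted p = 0.0456), or 0.65 after the GC correction, where its call was lost (adjusted p = 0.130). The phosphatase catalytic subunits differed from each other in their values. *Pdp1* was at 20.2, 28.9 and 38.5 cpm in floxed and 20.1, 34.3 and 33.3 cpm in H3atKO replicates 1 to 3, with a log2 fold change of -0.01 (limma adjusted p = 0.984) that became -1.10 after the GC correction (adjusted p = 0.0391). *Pdp2* was at 6.19, 5.17 and 7.15 cpm in floxed and 11.4, 13.6 and 10.1 cpm in H3atKO replicates 1 to 3, with a log2 fold change of 0.93 (limma adjusted p = 0.0729, or 0.0289 with the replicate block). Without floxed replicate 2 the limma adjusted p was 0.0516 for *Dld* and 0.0558 for *Pdhx*. With the replicate block 7 of the 8 genes were called higher and 0 lower, against 24.8% and 28.7% of all genes. After the GC correction 4 were called higher and 1 lower, against 5.46% and 3.20% of all genes. The 4 then were *Dld*, *Pdhx*, *Pdpr* and, in place of *Lias*, *Lipt2*, which transfers the octanoyl precursor of the lipoyl group (GC-corrected log2 fold change 1.53, limma adjusted p = 0.0432).

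The kinases were then set against the phosphatases as the ratio of summed PDK RNA per kilobase to that of *Pdp1* and *Pdp2*. The ratio was 60.4, 34.0 and 20.5 in floxed pools and 169, 103 and 56.9 in H3atKO pools, in the order of replicates 1 to 3. H3atKO replicate 3 was below floxed replicate 1, so that the groups overlapped, with a difference of 1.52 on the log2 scale (exact permutation test, p = 0.2). Within each replicate number the H3atKO pool was the higher one. After the GC correction the log2 ratios were 5.37, 4.69 and 4.31 in floxed pools and 7.49, 6.78 and 6.20 in H3atKO pools, in the order of replicates 1 to 3, apart by 2.03 (exact permutation test, p = 0.1, the smallest possible). *Pdk4* gives most of the sum of kinases, so that this ratio largely sets *Pdk4* against the phosphatases.

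**Figure D5:**
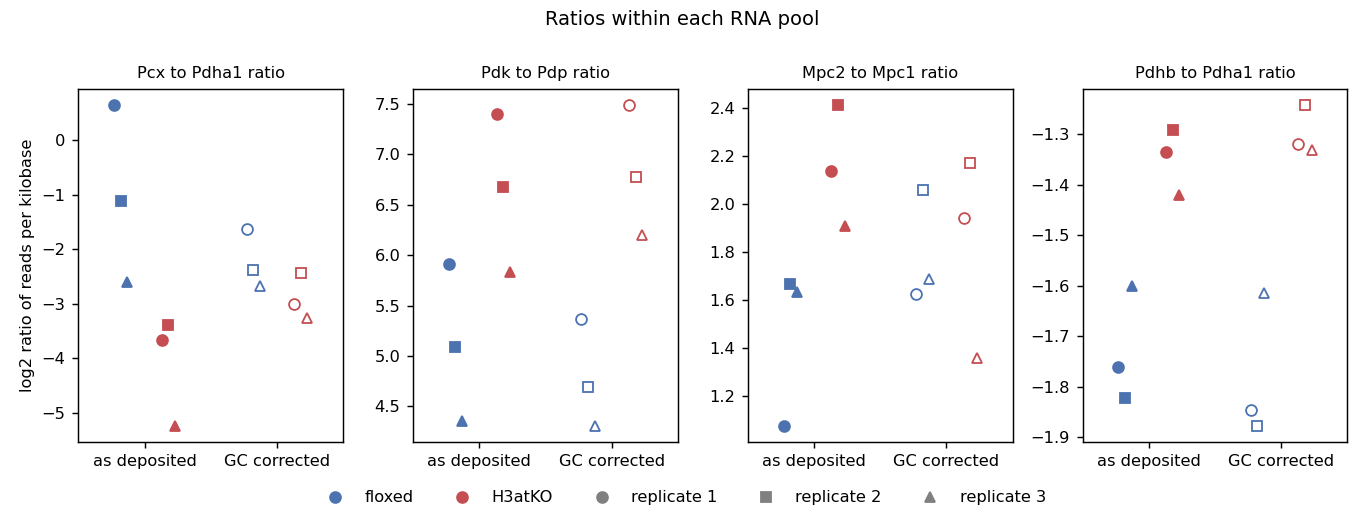
Log2 ratios of reads per kilobase within each RNA pool of floxed (blue) and H3atKO (red) mice, as deposited (filled) and after the GC correction (open), with the replicate number as the symbol and a separate axis for each ratio. *Pcx* to *Pdha1* and *Mpc2* to *Mpc1* are apart only as deposited, the ratio of kinases to phosphatases only after the correction, and *Pdhb* to *Pdha1* on both scales.

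Genes that make or spend pyruvate in the cytosol and around the mitochondrion formed a list of 13, of which 12 were tested and *Pklr*, the liver pyruvate kinase, had 0 counts in all samples. Of the 12, 4 were called higher and 0 lower, against 9.42% and 7.07% of all genes. At an unadjusted p under 0.05 the counts were 5 and 4, without a share of all genes beside them. The median log2 fold change of the list was -0.27. With the replicate block 5 were called higher and 3 lower, and after the GC correction 4 and 1, beside the shares of all genes given for these fits with the 10 genes. *Me1*, the cytosolic malic enzyme that makes pyruvate and NADPH from malate, was at 165, 182 and 202 cpm in floxed and 1898, 3730 and 2989 cpm in H3atKO replicates 1 to 3 (log2 fold change 3.93, standard error 0.30, limma adjusted p = 0.0061). *Me2*, the mitochondrial malic enzyme, rose by 1.66 on the log2 scale (limma adjusted p = 0.0215), *Slc16a1*, the monocarboxylate transporter MCT1, by 1.63 (adjusted p = 0.035) and *Gpt2*, the mitochondrial alanine transaminase, by 1.32 (adjusted p = 0.0244). Without floxed replicate 2 the limma adjusted p of *Me1* was 0.0508 at a log2 fold change of 3.92. After the GC correction these log2 fold changes were 3.41 for *Me1*, 1.08 for *Me2* and 1.79 for *Gpt2*, each with an adjusted p under 0.05, and 0.82 for *Slc16a1* (adjusted p = 0.327). *Pkm*, the pyruvate kinase of most tissues outside the liver, had 193, 88.5 and 66.6 cpm in floxed and 60.3, 44.5 and 9.04 cpm in H3atKO replicates 1 to 3. Its groups were apart, but the log2 fold change of -1.76 had a limma adjusted p of 0.0983 (0.0101 with the replicate block) and was 0.13 after the GC correction (adjusted p = 0.852). Its transcript is as rich in GC as those of *Pcx* and *Pdk2*, at 57.7%.

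For the products of both routes, acetyl-CoA and oxaloacetate, 9 downstream genes were listed. Of these, limma called 0 higher and 0 lower, against 9.42% and 7.07% of all genes. At an unadjusted p under 0.05 the counts were 3 and 2, without a share of all genes beside them. edgeR called 1 and 1, DESeq2 3 and 2, limma with the replicate block 3 and 3, and limma with the GC correction 1 and 0. Of all genes, edgeR called 12.8% and 18.4%, DESeq2 19.6% and 23.2%, the block 24.8% and 28.7%, and the GC correction 5.46% and 3.20%. In 3 of the 9 genes every H3atKO pool was above every floxed pool and in 2 every one was below, against 23.1% and 28.6% of all genes. The median log2 fold change of the 9 genes was -0.35. *Pck1*, the cytosolic enzyme that turns oxaloacetate into phosphoenolpyruvate for glycerol synthesis, was at 3861, 2947 and 1648 cpm in floxed and 1027, 3592 and 2423 cpm in H3atKO replicates 1 to 3. The groups overlapped widely (log2 fold change -0.35, limma adjusted p = 0.619), and the GC-corrected value was 0.54 (adjusted p = 0.505).

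Of 14 transcription factors and cofactors known to act on PDK genes, 2 were called higher and 0 lower, against 9.42% and 7.07% of all genes. At an unadjusted p under 0.05 the counts were 4 and 2, without a share of all genes beside them. The median log2 fold change of the list was -0.29. With the replicate block 5 were called higher and 6 lower, against 24.8% and 28.7% of all genes, with edgeR 3 and 3, against 12.8% and 18.4%, and with the GC correction 2 and 0, against 5.46% and 3.20%. *Ppara*, the fatty acid receptor that induces *Pdk4* in liver and heart, was at 6.24, 4.59 and 5.83 cpm in floxed and 25.6, 30.8 and 14.2 cpm in H3atKO replicates 1 to 3 (log2 fold change 2.05, standard error 0.39, limma adjusted p = 0.0248). H3atKO replicate 3 was the lowest of the H3atKO pools in *Ppara*, as it was in *Pdk4*, *Pcx*, *Pdk2* and *Pkm*. A link between *Ppara* and *Pdk4* was not tested. The limma adjusted p of *Ppara* was 0.0684 and 0.115 without floxed replicates 1 and 2 and 0.0774 and 0.0631 without H3atKO replicates 1 and 2. *Hif1a* was at 64.2, 83.7 and 117 cpm in floxed and 184, 202 and 242 cpm in H3atKO replicates 1 to 3 (log2 fold change 1.28, limma adjusted p = 0.0324), and it was 0.31 after the GC correction (adjusted p = 0.212).

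The make-up of the pools was read from marker genes. The 8 adipocyte markers summed to 24792 to 41874 cpm in floxed and 36586 to 77428 cpm in H3atKO samples, so that adipocyte RNA was present in all pools. Of these markers *Lpl* was called higher, with a mean of 9235 cpm in floxed and 39849 cpm in H3atKO samples, and *Cfd* lower (log2 fold change -3.99). After the GC correction the call of *Lpl* was lost (limma adjusted p = 0.0543) and that of *Cfd* held (0.0227). *Fabp4*, which also made up much of the sums, had means of 15912 cpm in floxed and 16331 cpm in H3atKO samples. The median log2 fold change of the list was -1.36 with 2 of 8 above 0. The 8 markers of brown or beige adipocytes, of which *Ppara* is one, summed to between 27.0 and 94.0 cpm in floxed and between 312 and 1154 cpm in H3atKO samples. Of the 7 tested, 3 were called higher, against 9.42% of all genes. In 4 every H3atKO pool was above every floxed pool, which held for 23.1% of all genes. *Elovl3* made up much of the H3atKO sums, at 722, 283 and 172 cpm in replicates 1 to 3. The groups overlapped in *Ucp1* (log2 fold change 2.33, limma adjusted p = 0.353), *Cox8b* (0.70) and *Cox7a1* (-0.28). Endothelial markers summed to 627 to 968 cpm in floxed and 431 to 574 cpm in H3atKO samples, with 2 of 6 called lower, against 7.07% of all genes. Skeletal muscle markers ranged from 619 to 2617 cpm in floxed and were at 394, 3439 and 3.03 cpm in H3atKO replicates 1 to 3. Of these, 0 of 8 were called in either direction. At an unadjusted p under 0.05 the counts were 0 and 4 with limma, without a share of all genes, and 0 and 0 with edgeR. B and T lymphocyte markers were at 6.46 to 124 cpm in floxed and 9.53 to 386 cpm in H3atKO samples, and stromal markers at 1422 to 4501 and 943 to 1567 cpm. Macrophage markers were at 470 to 2401 cpm in floxed and 366 to 644 cpm in H3atKO samples, ranges that overlapped. Of the 8, 3 were called lower, against 7.07% of all genes, and 0 after the GC correction. Epithelial markers summed to at most 3.84 cpm in floxed and 10.1 cpm in H3atKO samples, and of them *Epcam*, *Krt5*, *Krt8*, *Krt14* and *Krt18* were each at 0 in at least 1 sample. The part of the adipocyte, brown or beige, endothelial, skeletal muscle, macrophage, stromal and lymphocyte markers in the results was not tested.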

How the data were processed

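Total RNA from IngWAT was pooled from 2 or 3 mice per sample, and poly(A) libraries were made with a stranded kit and sequenced as single reads. The authors trimmed reads with cutadapt 1.3, aligned them to GRCm38 with STAR 2.4.2a and counted them per Ensembl gene with HTSeq 0.6.1. The strand setting of the counting is not given in the sources used here, so reads of genes that overlap on opposite strands may not be separable. The deposited values are raw counts per gene, 1 table per sample, with 3 floxed and 3 H3atKO samples. The 5 lines that name no gene, among them reads with several alignments, made up 37.3% to 44.0% of each floxed and 50.3% to 51.7% of each H3atKO table's total and were left out.

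The main test followed the study's methods. Genes that reached 1 cpm in 1 or more of the samples were tested, library sizes were scaled by TMM (edgeR 4.0.16), and genotype was tested with limma voom (limma 3.58.1, R 4.3.3) with Benjamini-Hochberg adjustment over all 14967 genes tested and a call at an adjusted p under 0.05. TMM factors were 1.30 to 1.37 in floxed and 0.66 to 0.92 in H3atKO samples. Single ratios and shares were compared with 2-sided exact permutation tests over samples, on reads per kilobase of the union of GENCODE M21 exons. Symbols were found for 46005 of 46517 identifiers. For the GC correction, the voom values of a sample were centred gene by gene, a robust loess curve (span 0.3) was drawn through them on the GC content of the longest transcript, and this curve was taken off. Intervals are 95% and cover the spread between pools, and the floor of 3 counts covers counting error only, since reads carry no molecular identifiers.

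Samples with the same replicate number in the labels deviated together from their group means (r = 0.51, 0.39 and 0.26 across genes for numbers 1, 2 and 3). Samples with different numbers were not set against each other, so these values do not establish a pairing. The correlation of expression with GC content also fell from number 1 to 3 in both groups. The fit with the replicate block, which treats the numbers as pairs, is given where it changed a call. The labels do not say what the shared number stands for. The alternatives were edgeR's quasi-likelihood test, DESeq2 1.42.0, library sizes alone, RLE factors, no filter, sample quality weights, a filter of 10 counts in each sample, the block, the GC correction, both together, a fit that left out mitochondrial genome transcripts, the length of the longest transcript, and each sample left out in turn. Some of the fits, the main one among them, were tested on simulated counts that held no trend on GC content and no replicate effect. The 10 genes, the pathway and marker lists and the tests were chosen with earlier results of these data known. By the rule for named genes, all 10 members were described, together with, from each pathway list, up to 4 called genes with the largest change whose groups did not overlap, *Pdp1*, *Pdp2*, *Pdhx*, *Dld*, *Pkm*, *Pck1* and *Ppara* whatever their values, and *Hdac3*. *Pklr*, *Lipt2*, the marker genes, and the genes that overlap members were named outside this rule, after their values were seen.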

Additional observations from a re-analysis of the deposited data

How the results depend on the processing

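For the 10 members, 17 alternatives each gave 170 log2 fold changes, of which 165 kept their direction and 5 reversed. *Pcx* turned to 0.52 with the GC correction and to 0.53 when the replicate block was added to it, and *Pdk2* to 0.091 and 0.13. *Pdk3* ranged from -0.35 to 0.17 when 1 pool was left out. Of the other genes, *Pkm* turned to 0.13 and 0.20 and *Pck1* to 0.54 and 0.52 in the same corrected fits, and *Pck1* ranged from -0.79 to 0.14 when 1 pool was left out. *Pdp1*, at -0.01, became 0.00081 with edgeR, 0.063 with DESeq2, 0.048 with RLE factors and 0.012 with the block, and ranged from -0.26 to 0.25 when 1 pool was left out. The GC correction takes off any difference that follows GC content, so a change of sign under it does not show a cause. The cause of these changes was not tested.

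The number of members called lower, 0 in the main fit, was 2 with DESeq2, 2 with library sizes alone, 1 with sample quality weights and 2 with the replicate block. Of all genes, these fits called 23.2%, 37.9%, 29.7% and 28.7% lower, in the same order. When 1 pool was left out, the number of members called lower ranged from 0 to 2. The number called higher then ranged from 0 to 7, in part because fewer samples remained. In the other alternatives 5 to 7 members were called higher. The share of all genes called higher in them ran from 2.04% with library sizes alone to 26.7% with sample quality weights. With library sizes alone *Pdk4* was no longer called (log2 fold change 1.06, adjusted p = 0.0622). The replicate block changed the calls of *Pcx*, *Pdk1* and *Pdk2* and of no other member, and of *Pdp2* and *Pkm* among the other genes followed through the alternatives. Called higher and lower, the 8 other complex and switch genes numbered 7 and 0 with the block and 4 and 1 with the GC correction, the genes of cytosolic pyruvate 5 and 3, and 4 and 1, the downstream genes 3 and 3, and 1 and 0, and the transcription factors 5 and 6, and 2 and 0. Of all genes, 24.8% and 28.7% were called with the block and 5.46% and 3.20% with the GC correction. The *Pdk4* share, 12.9 percentage points higher in H3atKO pools, ranged from 4.89 with the GC correction to 16.6 with the length of the longest transcript. With 3 pools a group, no ratio or share could reach an exact p under 0.1.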
